A study of Mus musculus with 6 samples.

Results

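Metallothioneins and zinc transporters were examined in mouse macrophages as a set of 10 genes chosen by name: the metallothioneins Mt1 and Mt2, the metal-sensing factor Mtf1, the importers Slc39a6, Slc39a8, Slc39a10 and Slc39a14, and the transporters Slc30a1, Slc30a5 and Slc30a7. Each gene had 1 probe set in the platform annotation, and all 10 passed the intensity filter, out of 19938 genes on the array of which 12649 were tested. The samples were 6 arrays, 3 for each of 2 genotypes, of C57BL/6 mice aged 8 weeks. The mice had received 2 ml of thioglycolate broth, which irritates the peritoneum and recruits macrophages, and cells were harvested after 72 h. Adherent cells were kept after 4 h on plates, rested for 24 h more and then exposed for 6 h to 100 ng/ml of lipopolysaccharide (LPS, a bacterial cell wall component). Control mice, whose arrays are called the control arrays, were LysMCre/Cre, with Cre recombinase in the lysozyme gene Lyz2 on both alleles. The other genotype, KLF2∆/∆, carried the same LysMCre/Cre together with a floxed Klf2 gene (KLF2 FL/FL). Both groups therefore carry the Cre insertion and received LPS, and deletion is driven only where the Lyz2 gene is active, which is in myeloid cells. The labels describe no cell sorting, no untreated cells were analysed here, and no label ties an array to a single mouse, although 3 mice of each genotype were injected. The p-values therefore measure spread among the arrays, which may be partly technical.

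Zinc inside a cell is kept in a narrow range by proteins of opposite action. Metallothioneins are small cysteine-rich proteins that bind zinc, copper and cadmium. ZIP proteins (the Slc39a genes) carry zinc into the cytosol from outside the cell or from organelles, and ZnT proteins (the Slc30a genes) carry it out of the cytosol, across the plasma membrane or into vesicles. The factor MTF-1, encoded by Mtf1, senses free zinc and activates metallothionein genes and Slc30a1 through short DNA motifs called metal response elements. In macrophages activated by microbial products, metallothioneins and several of these transporters are known to respond, and zinc handling is part of the defence against microbes inside the cell.

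All changes below are differences in mean log2 intensity, arrays labelled KLF2∆/∆ minus control arrays, n = 3 in each, and adjusted p is that of limma over all tested genes, two-sided, with a threshold of 0.05. The median log2 intensity per array lay between 7.85 and 7.90, and arrays correlated across genes at r = 0.994 to 0.997 within groups and 0.981 to 0.986 between groups (Pearson; genes are not independent replicates). The Klf2 signal was higher, not lower, in the arrays labelled KLF2∆/∆ (8.88, 8.97 and 8.94 against 9.10, 9.25 and 9.21, a change of 0.26 ± 0.064 SE, adjusted p = 0.00398). This goes against the label. The sources used here do not place the probes relative to the deleted part, and probes outside it would check nothing, so the groups are named by their labels throughout. Lyz2 changed by 0.0050 ± 0.057 (SE, adjusted p = 0.964). Of all tested genes, 16.2% were called lower and 13.6% higher in the arrays labelled KLF2∆/∆, and the marker counts that follow stand beside these shares. Fibroblast and mesothelial markers were lower in those arrays in 14 of 17 tested cases and higher in none. Their summed linear intensity was 22734 to 22927 in the control arrays and 13024 to 14319 in the others. Resident peritoneal macrophage markers were lower in 8 of 11 (Prg4 among them passed the filter only through the control arrays), higher in none, with sums of 27124 to 27634 and of 16426 to 17544. General macrophage markers passed the intensity filter in 13 of 15 cases and were higher in 8 of 13 and lower in 2, with sums of 64877 to 65399 and of 71476 to 72594. Neutrophil markers, 6 of 12 of them under the filter, were higher in 3 of 6 tested cases and lower in none. They summed to 5169 to 5450 in the control arrays and 6433 to 6698 in the others. Such sums lean on the brightest gene, here Csf3r, with mean log2 intensities of 11.92 and 12.30. Ly6g, S100a8, Ltf and Ngp were among those under the filter, and Camp did not pass. Mast cell markers, 4 of 8 under the filter, were lower in all 4 tested cases and summed to 3119 to 3245 and to 2645 to 2730. Dendritic cell markers (3 of 9 under the filter) summed to 5746 to 5973 and to 4107 to 4279. They were lower in 2 of 6 tested cases and higher in none. The 2 were Fscn1 (-0.79), the brightest of them, and Ccr7 (-0.23). The other 4 did not pass, Zbtb46 (-0.0032) and Batf3 (-0.040) among them. The summed levels of B cell markers and of T and NK cell markers overlapped between the groups. The sums take in the markers under the filter. The sums that do not overlap differ between the genotypes beside every result that follows, and their part in the results was not tested. In bulk RNA such as this, fewer cells of a type and less RNA per cell cannot be told apart.

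The arrays labelled KLF2∆/∆ had higher signals for both metallothioneins and for the zinc exporter gene Slc30a1, and lower signals for the zinc importer genes Slc39a6 and Slc39a8. Slc30a1 rose 1.57-fold and Mt1 1.43-fold, Mt2 rose 1.16-fold, and Slc39a6 and Slc39a8 fell by 0.49 and 0.23 on the log2 scale. The Mtf1 gene itself and the other importers and transporters of the set did not pass the test. Of the 10 genes, 5 were called, against 29.8% of all tested genes. Higher calls numbered 3, against a background of 13.6%, and lower calls 2, against 16.2%. The values of the 2 groups did not overlap for 6 of the 10 genes, against 40.8% of all tested genes. The median change of the 10 genes was -0.050 and that of all tested genes 0.0019, and the median size of change was 0.16 against 0.099. The 10 genes were chosen with earlier results of these data known, so nothing is read from these excesses.

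**Figure D1:**
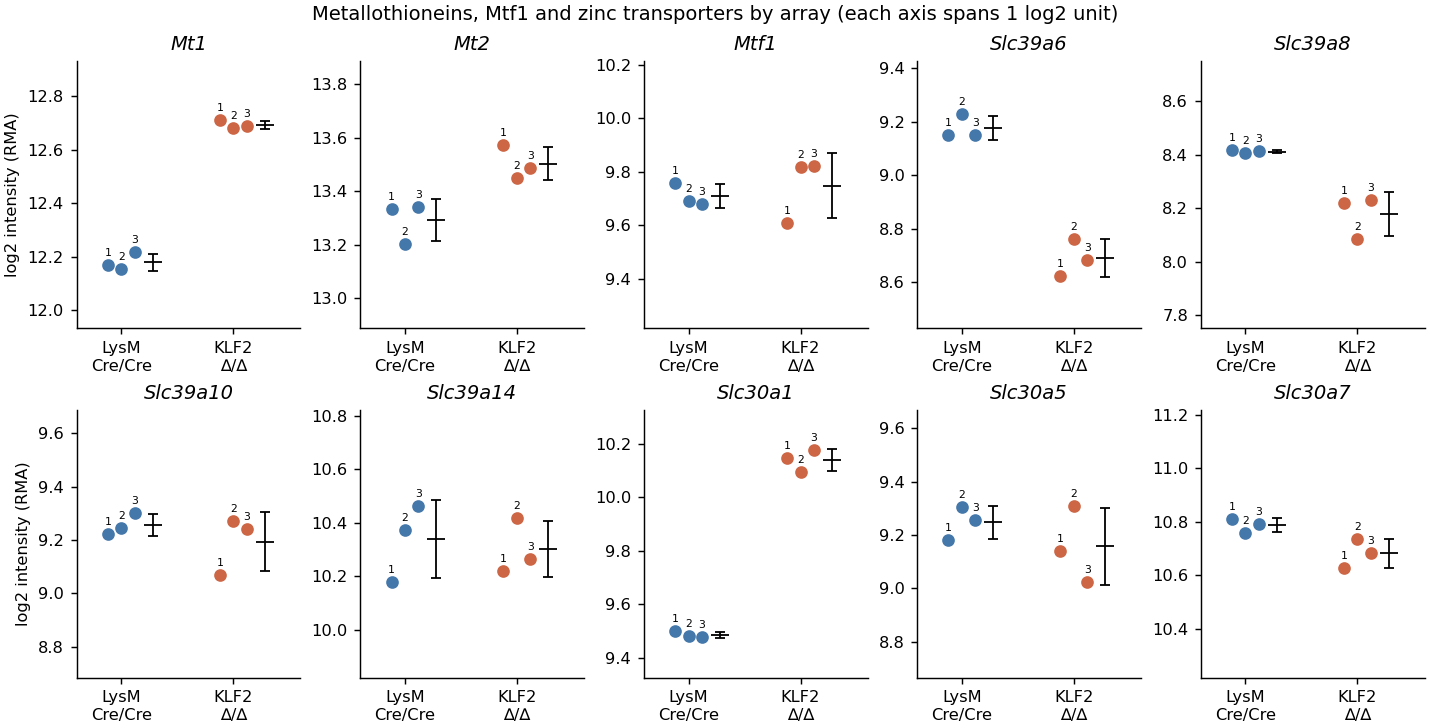
Log2 intensity (RMA, y axis) of the 10 genes in each of 3 control arrays (blue) and 3 arrays labelled KLF2∆/∆ (orange), with replicate numbers above the points and mean ± SD at the side. Each y axis spans the same length, so the panels show that Mt1, Slc30a1 and Slc39a6 differ most between the groups, while Slc39a14 and Mtf1 overlap.

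Among the metallothioneins, Mt1 (probe set 10574027) gave log2 intensities of 12.17, 12.15 and 12.22 in the control arrays and of 12.71, 12.68 and 12.69 in those labelled KLF2∆/∆. All 3 arrays of the second group lay above all 3 of the first, and the replicates of each group stayed within 0.064 of each other. The group means were 12.18 ± 0.033 and 12.69 ± 0.015 (SD), the change was 0.52 ± 0.036 (SE, 95% interval 0.44 to 0.59), and adjusted p was 9.47e-10. Among all tested genes this was rise number 112 in order of size. Mt2 (probe set 10574023) gave 13.33, 13.20 and 13.34 in the control arrays and 13.57, 13.45 and 13.49 in the others. These values also did not overlap, but the gap between the groups was smaller and the spread within each was wider. Means were 13.29 ± 0.078 and 13.50 ± 0.062 (SD), with a change of 0.21 ± 0.039 (SE, 95% interval 0.13 to 0.29) and adjusted p = 0.000283. Without moderation of the variances this call was lost (adjusted p = 0.0900, the highest of 17 alternatives, the lowest being 3.55e-05).

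The change of Mt1 was larger than that of Mt2 in log2 terms, a comparison chosen after their values were seen. The within-array difference Mt1 minus Mt2 was -1.17, -1.05 and -1.12 in the control arrays and -0.86, -0.77 and -0.80 in the others. It was higher in each of the arrays labelled KLF2∆/∆ than in any other, by 0.30 on average, and an exact permutation test (two-sided) gave p = 0.1, which 3 arrays against 3 cannot go below. The level of one probe set cannot be set against that of another, so only the shift of this difference was read. Mt2 read up to 13.57, where the largest value of any probe set was 14.75. Whether so bright a signal follows RNA amount less steeply was not tested, so the shift need not be one of RNA.

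Mt1 and Mt2 lie next to each other on chromosome 8 in the RefSeq table, where the order is Mt4, Mt3, the predicted gene Gm39227, Mt2 and Mt1. Of the other metallothioneins of this cluster, Mt3 did not pass the test and Mt4 was not tested. Mt3, a metallothionein best known from brain, gave 9.17, 9.21 and 9.31 against 9.25, 9.04 and 9.18, with a change of -0.077 ± 0.067 (SE, adjusted p = 0.452). Mt4, described in stratified epithelia, lay under the intensity filter of 7.49 on every array, with means of 6.79 and 6.80, and was not tested. The genes whose centred values over the 6 arrays were most like those of Mt1 were Emp1, Cpt1a, Dck, Slc29a3 and Arl11, with root mean square differences of 0.017 to 0.027 on the log2 scale. For Mt2 they were Fkbpl, Tmem229b, Cd83, Clec2j and Otud5, at 0.025 to 0.030. No gene was named for both, but this follows from the measure. It takes in the size of change, which was 0.52 for Mt1 and 0.21 for Mt2.

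The exporter gene Slc30a1 encodes ZnT1, which carries zinc out of the cell across the plasma membrane. Its log2 intensities (probe set 10352777) were 9.50, 9.48 and 9.48 in the control arrays and 10.15, 10.10 and 10.18 in those labelled KLF2∆/∆. The 2 groups were far apart relative to their spread, with a range of 0.021 among the control arrays and of 0.081 among the others. Means were 9.49 ± 0.011 and 10.14 ± 0.041 (SD), and the change was 0.65 ± 0.055 (SE, 95% interval 0.54 to 0.77) with adjusted p = 1.36e-08. It was the largest change among the 10 genes and rise number 60 of all tested genes. For each of the 5 called genes the exact two-sided permutation p over the arrays was 0.1, the smallest possible.

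The promoter windows of the 3 genes that rose are shown because metal response elements are known to act in promoters of these genes. The windows run from 250 bases before to 50 bases after the annotated gene start, 5′ to 3′ on the gene's strand, as RefSeq gives them for GRCm38.p6. Whether they hold the elements known to act was not checked. Capitals mark matches to the metal response element core, searched as TGCACNC and TGCGCNC on both strands, so that a match on the opposite strand appears as the reverse complement. No 2 matches overlap in these windows.
Mt1, chr8:94178839-94179138, plus strand: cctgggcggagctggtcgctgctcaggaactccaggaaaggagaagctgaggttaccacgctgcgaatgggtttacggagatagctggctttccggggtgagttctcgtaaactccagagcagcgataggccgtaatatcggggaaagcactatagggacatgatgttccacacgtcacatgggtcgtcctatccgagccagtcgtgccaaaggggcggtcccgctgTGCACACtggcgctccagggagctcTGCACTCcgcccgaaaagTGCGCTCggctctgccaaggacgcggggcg
Mt2, chr8:94172368-94172667, plus strand: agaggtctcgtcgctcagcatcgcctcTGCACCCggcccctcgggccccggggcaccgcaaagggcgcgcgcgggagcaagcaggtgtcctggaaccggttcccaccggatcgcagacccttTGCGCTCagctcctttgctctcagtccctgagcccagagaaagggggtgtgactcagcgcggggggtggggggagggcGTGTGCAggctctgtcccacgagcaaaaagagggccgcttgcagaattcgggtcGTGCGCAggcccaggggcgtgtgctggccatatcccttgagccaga
Slc30a1, chr1:191906531-191906830, plus strand: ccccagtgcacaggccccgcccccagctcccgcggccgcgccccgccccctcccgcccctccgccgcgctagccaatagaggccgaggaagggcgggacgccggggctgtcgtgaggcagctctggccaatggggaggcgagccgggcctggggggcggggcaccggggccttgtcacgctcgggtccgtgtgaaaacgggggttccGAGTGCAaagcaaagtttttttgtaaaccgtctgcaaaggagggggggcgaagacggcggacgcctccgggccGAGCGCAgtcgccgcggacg
The Mt1 window held 3 cores, with first bases at -23, 3 and 21 relative to the annotated start, all on the gene's strand. The Mt2 window held 4, at -223, -128, -50 and 5, of which the last 2 were on the opposite strand. The Slc30a1 window held 2, at -43 and 31, both on the opposite strand. Of all 32851 promoter windows of this length, 25.7% held at least 1 core, 7.11% at least 2, 1.97% at least 3 and 0.517% at least 4. The RefSeq start need not be the one used in these cells, so positions are relative to the annotation only, and cores outside the windows were not counted. A match is a description of the letters, not a bound site. Metal response elements of these genes were known beforehand, so the core counts are not a result of these arrays. Their part in the changes was not tested.

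**Figure D2:**
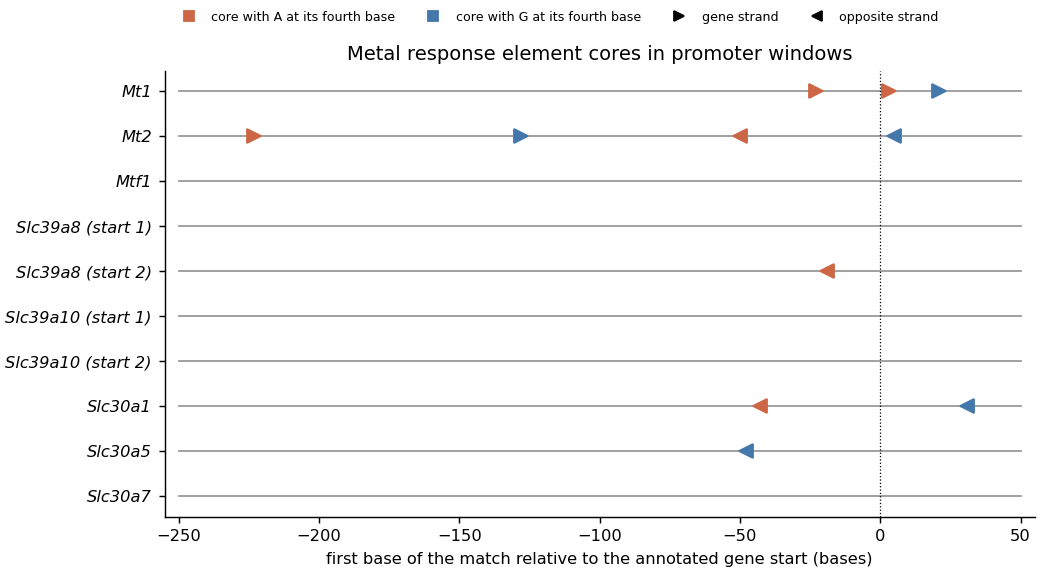
Position of metal response element cores (triangles, pointing right on the gene's strand and left on the opposite strand) in the promoter windows of the 8 genes with an entry, in bases from the annotated start (x axis). Slc39a8 and Slc39a10 have 2 annotated starts each, and the Mt1, Mt2 and Slc30a1 windows hold 3, 4 and 2 cores, while no other window shown holds more than 1.

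Among the other genes of the set, 5 of their windows held no core (Mtf1, Slc30a7, both of Slc39a10 and 1 of Slc39a8), and the Slc30a5 window and the second Slc39a8 window held 1 each. The promoters of Slc39a6 and Slc39a14 were not searched.

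Mtf1 encodes the zinc-sensing transcription factor, whose activity is set by zinc binding and entry into the nucleus. Its log2 intensities (probe set 10507961) were 9.76, 9.69 and 9.68 in the control arrays and 9.61, 9.82 and 9.82 in the others. Replicate 1 of the arrays labelled KLF2∆/∆ lay below, and replicates 2 and 3 above, every LysMCre/Cre array. The change was 0.039 ± 0.064 (SE, 95% interval -0.095 to 0.17, adjusted p = 0.716).

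The ZIP importers of the set fell or did not pass. Slc39a6 encodes ZIP6, an importer of the plasma membrane. Its signal (probe set 10457872) was 9.15, 9.23 and 9.15 in the control arrays and 8.62, 8.76 and 8.68 in those labelled KLF2∆/∆. All 3 of the latter lay below all of the former, with means of 9.18 ± 0.045 and 8.69 ± 0.070 (SD). The change was -0.49 ± 0.064 (SE, 95% interval -0.62 to -0.35), adjusted p = 6.00e-06. Slc39a8 encodes ZIP8, described as a target of NF-kB that brings zinc into monocytes and macrophages and restrains NF-kB signalling. Its signal (probe set 10496324) was 8.42, 8.40 and 8.41 against 8.22, 8.08 and 8.23. The LysMCre/Cre values lay within 0.012 of each other and above all of the others, which spread over 0.15. The change was -0.23 ± 0.068 (SE, 95% interval -0.38 to -0.091), 1.18-fold lower, with adjusted p = 0.0127.

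The remaining importers of the set gave overlapping groups. Slc39a10, which encodes the plasma membrane importer ZIP10, read 9.22, 9.24 and 9.30 against 9.07, 9.27 and 9.24. Replicate 1 of the arrays labelled KLF2∆/∆ was the lowest, and the change of -0.062 ± 0.066 (SE, 95% interval -0.20 to 0.075, adjusted p = 0.549) turned to 0.00047 without it. Slc39a14 encodes ZIP14, a carrier of zinc, iron and manganese that interleukin 6 induces in mouse liver. It read 10.18, 10.38 and 10.46 against 10.22, 10.42 and 10.27, so that the spread of 0.28 among the control arrays was the widest of that group among the 10 genes. Its change was -0.038 ± 0.069 (SE, 95% interval -0.18 to 0.11, adjusted p = 0.744), and became 0.024 without LysMCre/Cre replicate 3 and 0.0034 without KLF2∆/∆ replicate 1. In the same arrays Il6 fell by 1.59 on the log2 scale, and any link of Il6 to Slc39a14 in these cells was not tested.

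Slc30a5 and Slc30a7 encode ZnT5 and ZnT7, which load zinc into the early secretory pathway. Slc30a5 read 9.18, 9.30 and 9.26 against 9.14, 9.31 and 9.03, with overlapping groups and a spread of 0.28 among the arrays labelled KLF2∆/∆, the widest of that group. Its change was -0.089 ± 0.071 (SE, 95% interval -0.24 to 0.059, adjusted p = 0.403). Slc30a7 read 10.81, 10.76 and 10.79 against 10.63, 10.74 and 10.68. These groups did not overlap, yet the change of -0.11 ± 0.050 (SE, 95% interval -0.21 to -0.0021) did not pass after adjustment (adjusted p = 0.123). It passed without KLF2∆/∆ replicate 2 (-0.13, adjusted p = 0.0419) and after a further quantile normalization (-0.11, adjusted p = 0.0366). Replicates of the arrays labelled KLF2∆/∆ had the larger SD for 7 of the 10 genes, Mt1, Mt2 and Slc39a14 being the exceptions. The same held for 42 of the 57 tested genes of the other families and lists described below, so it is not particular to these 10. Replicate 1 was the lowest of that group for 5 genes, replicate 2 for 4 and replicate 3 for 1.

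**Figure D3:**
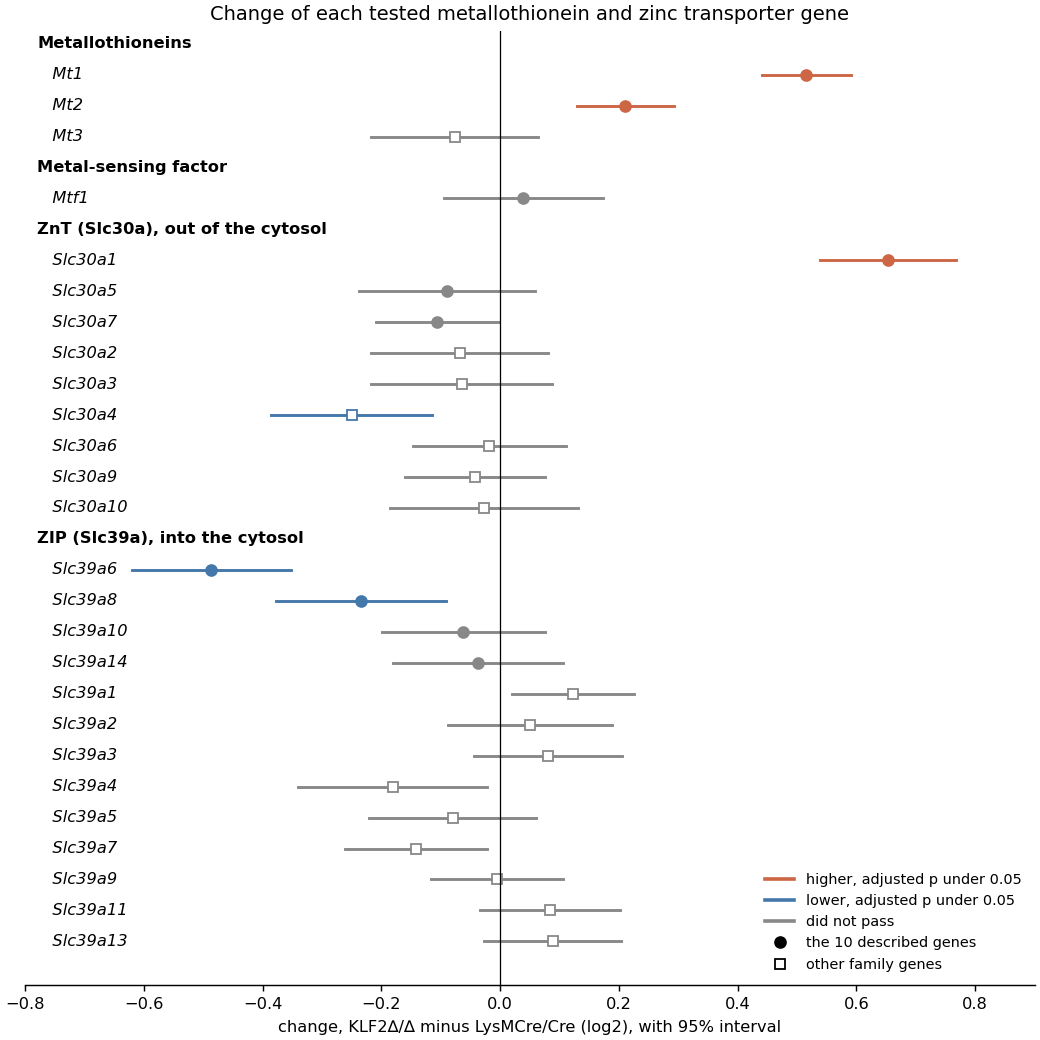
Change in log2 intensity (x axis, arrays labelled KLF2∆/∆ minus control arrays, bars for the 95% interval) of every tested metallothionein, ZnT and ZIP gene and of Mtf1, with circles for the 10 genes and squares for other family genes. Slc30a1 and Mt1 lie farthest to the right at 0.65 and 0.52, Slc39a6 farthest to the left at -0.49, and most other genes of both transporter families have intervals that include 0.

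In the whole families, 15.4% of ZIP genes and 22.2% of ZnT genes were called, beside 29.8% of all tested genes. Of 13 tested ZIP genes, 2 fell, none rose and 11 did not pass, with a median change of -0.038 and 5 at an unadjusted p under 0.05. Both called ZIP genes, Slc39a6 and Slc39a8, belong to the set of 10, and the ZIP genes outside it ranged from -0.18 to 0.12. Of 9 tested ZnT genes, 1 rose (Slc30a1), 1 fell (Slc30a4) and 7 did not pass, with a median change of -0.065. Slc30a4 encodes ZnT4, a vesicle transporter, and is the gene mutated in the lethal milk mouse, known for zinc-poor milk. It read 9.02, 9.16 and 9.01 in the control arrays and 8.82, 8.84 and 8.79 in the others. The groups did not overlap, with a change of -0.25 ± 0.065 (SE, adjusted p = 0.00529), and the call was lost without LysMCre/Cre replicate 2 (-0.20, adjusted p = 0.0583). Slc39a1, the broadly expressed importer ZIP1, named after its values were seen, had 2 probe sets: the brighter changed by 0.12 and did not pass (adjusted p = 0.0691), the dimmer by 0.23. It was called with the probe sets averaged and without KLF2∆/∆ replicate 1. Slc39a12, Slc30a8 and Mt4 were the family genes under the intensity filter.

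Genes outside the families that are described as responding to MTF-1 went both ways. Of 6, 4 were tested, 2 rose, 1 fell and 1 did not pass, with a median of 0.11. Among all tested genes, 13.6% were called higher and 16.2% lower. Ndrg1, a stress-responsive gene, rose by 0.29 ± 0.054 (adjusted p = 0.000291) and Selenow, which encodes a small selenoprotein, by 0.15 ± 0.045 (SE, adjusted p = 0.0143). The call of Selenow was lost without single arrays: leaving out LysMCre/Cre replicate 3 gave 0.12 (adjusted p = 0.0890) and leaving out KLF2∆/∆ replicate 2 gave 0.12 (adjusted p = 0.0975). Its adjusted p ran from 0.00455 to 0.186 across the 17 alternatives. Gclc, the catalytic subunit of glutathione synthesis, changed by -0.27 ± 0.069 (SE, adjusted p = 0.00516), a call lost without moderation of the variances (adjusted p = 0.117). Csrp1, a LIM domain protein gene, changed by 0.063 and did not pass (adjusted p = 0.272).

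Metallothioneins also bind copper. Of 9 tested genes of copper handling, 2 rose, none fell and 7 did not pass, with a median of 0.11, beside 13.6% higher and 16.2% lower calls among all tested genes. Sco1, which delivers copper to cytochrome oxidase, rose by 0.46 ± 0.071 (SE, adjusted p = 3.94e-05). Slc31a2, a copper transporter of endosomes and lysosomes, rose by 0.34 ± 0.034 (SE, adjusted p = 1.77e-07). Cox17 changed by 0.23 (adjusted p = 0.0710) and the plasma membrane copper importer gene Slc31a1 by 0.14 (adjusted p = 0.0817). Without KLF2∆/∆ replicate 3 both passed (0.35 with adjusted p = 0.00158, and 0.22 with adjusted p = 0.00178), which brought the count of rises to 4, as array weights also did.

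Glucocorticoids, interleukin 6 and oxidants are other known inducers of metallothionein genes, and genes linked to each were read from fixed lists. The interleukin 6 list holds mostly the cytokine, its receptor subunits and its signalling genes. Whether any of these inducers was more or less active was not tested. Of 10 glucocorticoid-induced genes, 4 rose, 2 fell and 4 did not pass, with a median of 0.074. Among all tested genes, 13.6% were called higher and 16.2% lower. The phosphatase gene Dusp1 rose by 0.87 and the kinase gene Sgk1 by 0.29, whereas the transcription factor gene Klf9 changed by -0.44 and Errfi1, a feedback inhibitor of EGF receptor signalling, by -0.41. Of 10 genes of interleukin 6 and STAT3 signalling, 4 rose, 2 fell and 4 did not pass, beside the same shares. Their median was 0.084. Il6 changed by -1.59 ± 0.082 (SE, adjusted p = 1.75e-11) and its shared receptor subunit gene Il6st by -0.28. Jak1 rose by 0.20 and the kinase gene Pim1 by 0.18.

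Oxidative and heavy metal stress genes went both ways. Among 8 tested genes, falls numbered 5 and rises 2, and 1 gene did not pass, with a median of -0.37. Of all tested genes, 16.2% were called lower and 13.6% higher. The rises were Nfe2l2 (0.22) and Keap1 (0.25), and the heat shock gene Hspa1a did not pass (-0.079, adjusted p = 0.448). Hmox1 was among the falls, at -0.28. The cystine carrier gene Slc7a11 changed by -0.95 ± 0.060 (SE, adjusted p = 2.45e-10), Gclm, the modifier subunit of glutathione synthesis, by -0.67, the sulfiredoxin gene Srxn1 by -0.53 and the thioredoxin reductase gene Txnrd1 by -0.45. Across these pathway lists and the remaining family genes together, 25 of 57 tested genes (43.9%) were called, 14 higher and 11 lower, beside 29.8% of all tested genes, of which 13.6% were higher and 16.2% lower. These lists were chosen with results known, so nothing is read from the excess.

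**Figure D4:**
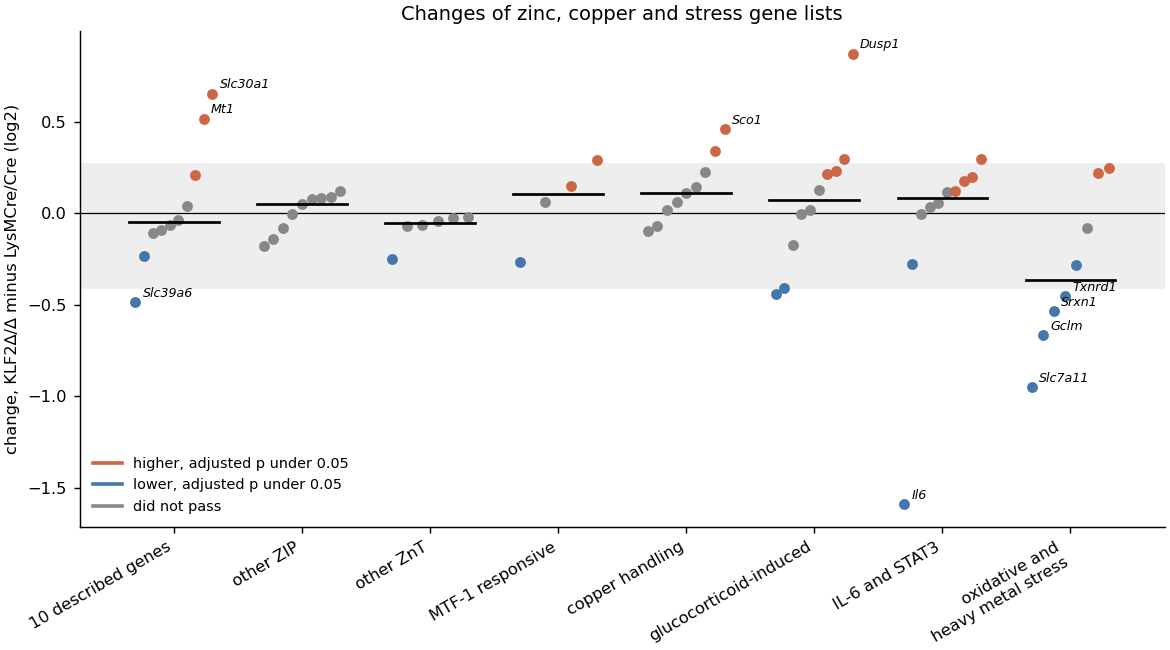
Change in log2 intensity (y axis) of each tested gene of the 10-gene set and of 7 fixed lists, coloured by call, with the list median as a black line and the range from the 5th to the 95th percentile of all tested genes (-0.41 to 0.27) in grey. Mt1 and Slc30a1 lie above the grey range and Slc39a6 below it, the other ZIP genes all lie within it, and 4 of the 8 oxidative stress genes lie below it.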

How the data were processed

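Values were deposited as log2 intensity for each probe set. Per the submitters' processing notes, the tools were Affymetrix Expression Console and RMA, a method that corrects background, equalises array distributions by quantiles and summarises probes. The authors also deposited linear intensity, whose log2 differed from the first table by at most 5.1e-05. Versions and scan dates are not given, so batches were not tested. Quantile normalization hides any shift common to most genes.

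Of 35557 probe sets, 6613 with the lowest identifiers were treated as controls. Symbols of the 21789 probe sets that name 1 gene were updated to RefSeq names (GRCm38.p6), which matched 21698. Each gene was represented by its brightest probe set, and genes with a mean below the 40th percentile of non-control probe sets (log2 7.49) were dropped, leaving 12649. The test was limma 3.58.1 (R 4.3.3), with lmFit and eBayes with an intensity trend, two-sided, adjusted by Benjamini-Hochberg. Exact permutation tests over the 20 assignments of arrays were added. The number of arrays limits the precision. The test was checked on simulated data, which cannot show whether the arrays stand for separate mice. Named genes were the 10 genes, called genes of the same families, up to 4 genes of each other list with the smallest p, Klf2 and Lyz2 as label checks, and for Mt1 and Mt2 the 5 genes with the most similar centred values. Mt3, Mt4, Slc39a1 and the genes under the filter were named after their values were seen. The 10 genes and the lists were chosen with earlier results of these data known, and no set test was run. Alternatives (17) covered the block, scaling, array weights, variance model, filter, probe sets, the second table and leaving out each array. Figures were drawn with matplotlib 3.10.9.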

Additional observations from a re-analysis of the deposited data

How the results depend on the processing

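Mt1, Slc30a1 and Slc39a6 kept their direction and their call under all 17 alternatives, with changes of 0.49 to 0.53, 0.64 to 0.68 and -0.52 to -0.44. Slc39a8 kept its call under all 16 alternatives that tested it (adjusted p of 0.00987 to 0.0477). With a filter at the 60th percentile it was not tested, which left 1 lower call among the 10 genes. Without moderation of the variances Mt2 (0.21, adjusted p = 0.0900) lost its call, and 2124 genes were called, 969 higher and 1155 lower, against 3766, 1723 and 2043. Klf2 then had adjusted p = 0.0522. Slc30a7 gained a call after a further quantile normalization (-0.11, adjusted p = 0.0366), which moved the median change of all tested genes to 0.021, and ran from -0.13 to -0.078 over the fits without 1 array. Over the same fits Slc39a10 ran from -0.10 to 0.00047 and Slc39a14 from -0.12 to 0.024, both uncalled throughout. Those fits called 2935 to 3776 genes and 5 or 6 of the 10. With the replicate number as a block, 3824 genes and the same 5 of the 10 were called, and Cox17 gained a call (0.23, adjusted p = 0.0387), which made 3 copper genes higher in place of 2. The numbers share no stated source: deviations of same-numbered arrays correlated at -0.091, 0.12 and -0.049, the highest r over all pairs was 0.18 between LysMCre/Cre replicate 3 and KLF2∆/∆ replicate 1, and only LysMCre/Cre replicate 2 matched its own number best. The causes of these shifts were not tested, apart from the fewer genes tested under the stricter filter. With 3 arrays a group, changes of about the median standard error of 0.068 are not resolved. Some larger changes did not pass either, such as those of Slc39a4 (-0.18, adjusted p = 0.0828) and Cox17 (0.23, adjusted p = 0.0710) in the main fit.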
